A study of Mus musculus with 24 samples.

Results

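The comparison set 4 control arrays of mouse liver at postnatal day 7.5 against 4 control arrays labelled whole embryo at embryonic day 14.5, all of strain ICR-CD1. The 8 arrays were taken by their titles from the 24 of the series, and 19505 genes were compared, each through the brightest of its probe sets that name exactly 1 gene (19572 of 29129 probe sets do). The study profiled grandoffspring of control or obese grandfathers, the obese line being labelled SL, as embryos of day 7.5 or 14.5 and as neonatal liver, with 4 arrays in each of 6 groups. The labels give no allele for any group, and no treatment other than the grandfathers' obesity. The labels do not say whether an array holds 1 animal or a pool, or whether the 4 arrays of a group come from separate litters, so p-values measure only the spread between these samples, which may be technical.

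Before birth the rodent liver is both an immature metabolic organ and the main site of blood formation, where erythroblasts mature around macrophages and stem cells expand. Around and after birth haematopoiesis moves to bone marrow and spleen, and the hepatocyte takes over glucose release during fasting, ammonia disposal, bile acid synthesis and detoxification. A network of nuclear receptors and factors such as HNF4A, C/EBP alpha and PPAR alpha drives that programme, while oncofetal genes are silenced.

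The day 14.5 arrays went against their label of whole embryo. Of 19 neuron markers, 1 lay above background on all 4 of them, as did 2 of 18 skeletal muscle, 1 of 15 cartilage and bone and 2 of 12 skin markers. In both groups at once, 11, 11, 10 and 9 of those markers lay below background on every array. Hepatocyte transcripts were already near the top of the scale, whose highest value on the day 14.5 arrays was 13.64. Alb, encoding albumin, had log2 intensities of 13.54, 13.51, 13.50 and 13.50 on the day 14.5 arrays and 13.85, 13.77, 13.74 and 13.82 on the liver arrays, in the order of replicates 1 to 4, and Afp, encoding the fetal plasma protein alpha-fetoprotein, had 13.13, 13.08, 13.10 and 13.13 and then 12.95, 13.07, 12.89 and 12.98. The arrays are therefore called the day 14.5 arrays below. Their contents were not identified further, and labelled tissue and age cannot be told apart in any difference given here.

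All values are log2 intensities, and a difference is liver minus day 14.5. Group means are given ± SD (n = 4) and differences ± SE from limma, with p-values adjusted by the Benjamini-Hochberg method over all 19505 genes and a gene called at an adjusted p under 0.05. Background is the 75th percentile of the 5222 intron control probes of each array. Where every array of the dimmer group lay at or below background, the fold is given as at least the brighter group's mean over that background, and a difference printed for such a gene is the fitted value and not a measured size. Background was 5.98 to 6.51 on the day 14.5 arrays, highest on replicate 1, and 5.65 to 6.07 on the liver arrays, and 48.3% to 53.5% against 53.6% to 58.4% of genes lay above it, shares that did not overlap (exact permutation test, two-sided, p = 0.0286, the smallest that 70 regroupings allow). Arrays correlated at 0.984 to 0.991 on average with their own group and 0.910 to 0.926 with the other. The Y-linked genes Eif2s3y, Kdm5d and Uty, named after their values were seen, were above background on all 4 liver arrays but only on day 14.5 replicates 1 and 4, so the sex mix differs between groups. With a score of these 3 genes as a covariate 7457 genes were called.

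Of the 19505 genes, 8808 (45.2%) were called, 4007 higher in liver (20.5%) and 4801 lower (24.6%). At a difference of at least 1, 2035 (10.4%) were higher and 1986 (10.2%) lower. Differences spanned -9.49 to 9.55, with a median of -0.02 over all genes, and the 4 arrays of each group did not overlap for 43.7% of genes. The split depends on the scaling. With each array centred on 10 housekeeping genes the median moved to 0.28 and 6878 were higher against 3104 lower, and centred on the intron controls it moved to 0.22 with 65.4% of 6733 calls higher, so small falls are read relative to those shifts. Calls on small differences were also marginal. Those of Alb, Igf2, Spic, Fth1, Ldhb, Cd34, Gata6 and Lyve1, described below, were lost on leaving out any of 5 to 7 of the 8 arrays in turn, and that of Vwf without day 14.5 replicate 1 or liver replicate 1. More genes passed background on the liver arrays alone than on the day 14.5 arrays alone. Background itself was higher on the day 14.5 arrays (mean 6.13 against 5.90), and its part in this split was not tested. On 414 genes all 4 liver arrays and no day 14.5 array exceeded background, and the reverse held for 106, while 7486 genes stayed below background on all 8 arrays. The counts of calls include 491 higher and 481 lower among those 7486, whose levels were not measured.

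The SL line gave the same comparison in 8 other arrays and called 8924 genes (45.8%). Of the 2035 control rises of at least 1, 99.5% had the same sign there and 95.9% were called, and of the 1986 falls 99.7% and 97.0%. Over all genes the sign was the same for 80.7%. A test of the difference between lines called 1 gene (0.00513%), with 1826 at an unadjusted p under 0.05. It was Cirbp, encoding a cold-inducible RNA-binding protein, which was named for that test, rose by 0.82 in controls and had -0.77 in the SL line (difference -1.59, adjusted p = 0.00143).

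The largest rises were in liver enzymes and secreted proteins that were below background on every day 14.5 array. Tdo2, encoding the tryptophan dioxygenase that opens tryptophan breakdown, had 2.31, 3.04, 2.48 and 3.06 on the day 14.5 arrays and 12.18, 12.15, 12.41 and 12.37 on the liver arrays. Cyp2e1, a P450 that oxidises ethanol and ketone bodies, went from 3.69, 3.53, 3.43 and 3.18 to 12.86, 12.74, 13.04 and 13.02. Every liver value of each gene lay over 9 log2 units above every day 14.5 value. The rise was at least 70.8-fold for Tdo2 (difference 9.55 ± 0.19, adjusted p = 1.56e-09) and at least 110-fold for Cyp2e1 (9.46 ± 0.14, adjusted p = 5.55e-10). The other 10 of the 12 largest were the P450 genes Cyp2j5 (8.40), Cyp2b9 (8.32), Cyp1a2 (8.12), Cyp3a25 (8.01) and Cyp4a14 (7.63), the hepatokine Fgl1 (8.18), the lipid-mobilising plasma protein Azgp1 (8.09), the steroid dehydrogenase Akr1c6 (7.34), the gluconeogenic enzyme Pck1 (7.14) and the secreted ligand Prok1 (7.14). All 12 had 0 of 4 day 14.5 arrays and 4 of 4 liver arrays above background.

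The 3 largest falls were embryonic globins, the chains that yolk sac red cells make. Hbb-y, the embryonic epsilon-type beta chain, had 12.07, 12.77, 12.84 and 12.76 on the day 14.5 arrays and 4.08, 3.10, 2.62 and 2.68 on the liver arrays, at least 105-fold lower (it fell by 9.49 ± 0.32, adjusted p = 2.29e-08). Hba-x, the zeta-type alpha chain, fell by 7.04, and Hbb-bh1, a further embryonic beta chain, fell by 6.79. In RNA from whole tissue fewer cells of a type and less RNA per cell cannot be told apart, here and for every cell marker below. Next came Cited4 and Cited1, transcriptional coregulators that bind CBP/p300 (-5.25 and -4.99), and Hif3a, a hypoxia-inducible factor subunit, which had 10.12, 10.06, 9.82 and 9.88 and then 5.19, 5.17, 5.07 and 4.65 (-4.95 ± 0.15). The arginine deiminase Padi2 (-4.26), the glucose transporter Slc2a1 (-4.19), the tachykinin precursor Tac2 (-4.15), the membrane immunoglobulin-family protein Igsf1 (-4.11), the synaptotagmin Syt14 (-4.04) and the let-7 repressor Lin28b (-4.02) completed the 12. Among them only Slc2a1 was above background on the liver arrays.

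**Figure D1:**
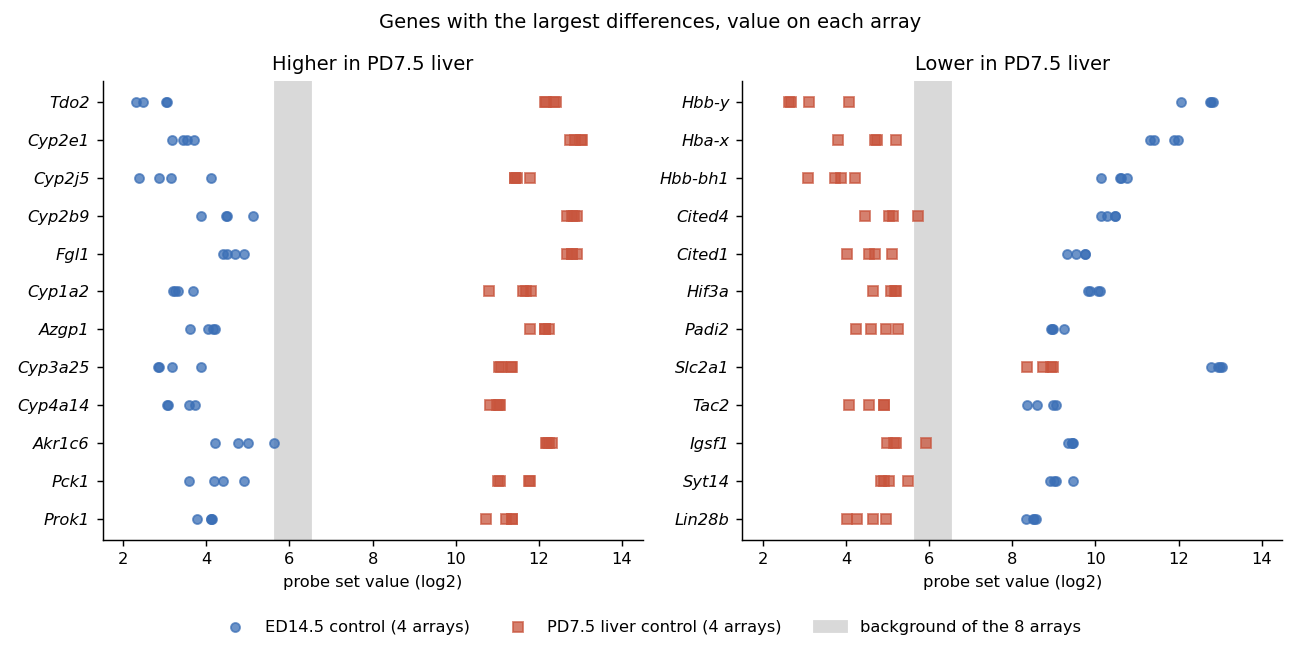
Log2 intensity on each of the 8 arrays for the genes with the largest differences, with day 14.5 arrays as circles, liver arrays as squares and the range of the arrays' backgrounds as a grey band. The groups do not overlap for any gene drawn. Tdo2 lies at 2.31 to 3.06 on the day 14.5 arrays and 12.15 to 12.41 in liver, and Hbb-y at 12.07 to 12.84 and then 2.62 to 4.08.

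**Figure D2:**
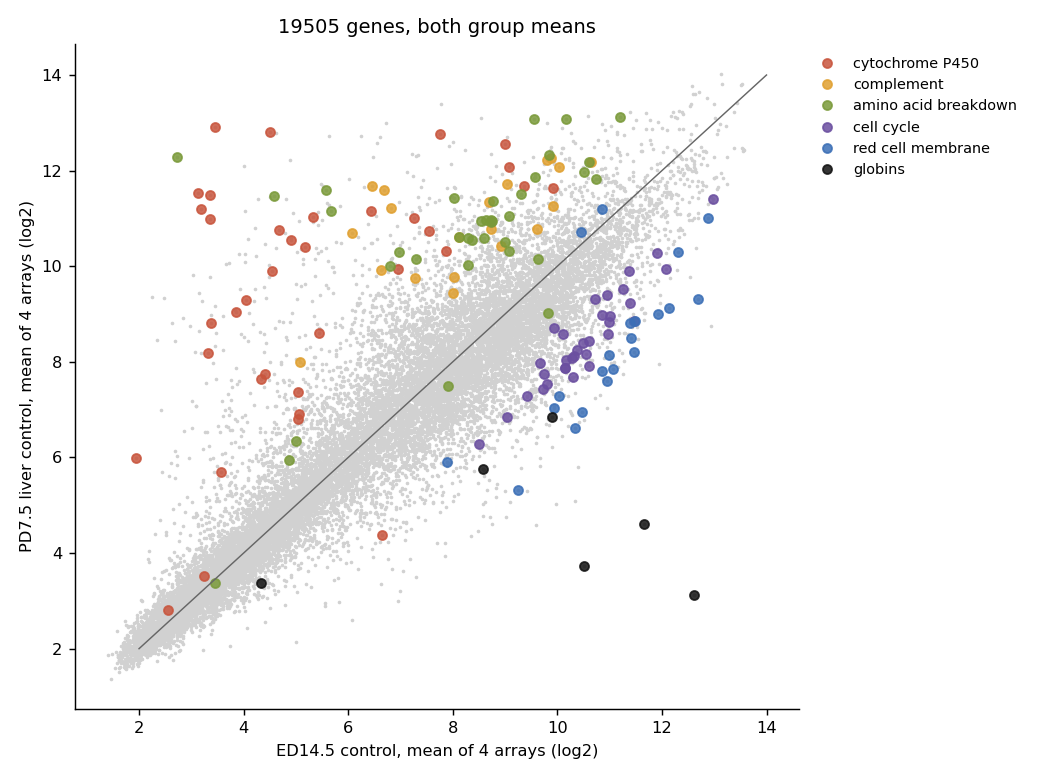
Mean log2 intensity of each of 19505 genes in liver (vertical axis) against the day 14.5 mean (horizontal axis), 1 grey point per gene and a line where the means are equal, with the members of 6 gene lists described below in colour. Cytochrome P450, complement and amino acid breakdown genes lie mostly above the line, and all 33 cell cycle genes and all 6 globins lie below it.

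Genes of glucose production rose. Of 15 gluconeogenesis genes 13 rose and 2 fell, with a median difference of 1.55. Pck1, encoding cytosolic phosphoenolpyruvate carboxykinase, had 4.90, 4.18, 4.41 and 3.59 on the day 14.5 arrays and 11.01, 11.07, 11.80 and 11.76 in liver, at least 38.8-fold higher. G6pc, the phosphatase that releases free glucose, had 4.84, 4.95, 4.69 and 4.75 and then 11.16, 11.24, 11.44 and 11.78, at least 38.6-fold higher. On both genes liver replicates 3 and 4 were above replicates 1 and 2, and no day 14.5 array came within 5 units of any liver array. Fbp1, fructose bisphosphatase, rose 64.8-fold from 6.56 ± 0.40 to 12.58 ± 0.05, and Tat, the tyrosine aminotransferase long used as a marker of perinatal hepatocyte maturation, at least 40.2-fold. The mitochondrial isoenzyme went the other way: Pck2 fell by 1.72 ± 0.15 (adjusted p = 9.97e-06). Ldhb, the heart-type lactate dehydrogenase subunit, also fell, by 0.64 ± 0.20, with overlapping arrays.

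Of 6 sugar genes with a liver role 5 rose and 1 fell. Besides Fbp1, those that rose were Gckr, a regulatory protein of hepatic sugar metabolism (2.77), Tkfc and Khk of fructose breakdown (2.58 and 2.37), and Slc2a2, the liver glucose transporter (1.02). The one that fell was Pklr, the pyruvate kinase gene of both liver and red cells, whose isoforms were not separated here, with 12.19, 12.25, 12.20 and 12.26 on the day 14.5 arrays and 10.44, 10.44, 10.56 and 10.64 in liver (it fell by 1.71 ± 0.10, adjusted p = 7.91e-07). Of 15 fetal or widely expressed glycolysis genes 1 rose and 11 fell, with a median of -0.81. Slc2a1, the glucose transporter of red cells and many fetal tissues, lay between 12.77 and 13.05 on the day 14.5 arrays and at 8.74, 8.36, 8.92 and 8.97 in liver, 18.3-fold lower. Hk1, the hexokinase of red cells and most tissues, fell from 11.04 ± 0.09 to 8.10 ± 0.70, with liver replicate 2 at 9.12 and the other 3 liver arrays at 7.63 to 7.97. Slc2a3 and Aldoa fell by 2.21 and 1.34, whereas Ldha, the muscle-type lactate dehydrogenase subunit, rose by 0.38. With housekeeping centring 9 of the 15 still fell. Glycogen genes moved less: 7 of 12 rose and none fell, led by the glycogen-targeting phosphatase subunits Ppp1r3c (4.80) and Ppp1r3b (4.04), with the phosphorylase Pygl at 1.24.

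All 8 urea cycle and ammonia genes rose, by a median of 1.73. Cps1, carbamoyl phosphate synthetase, the entry step, had 9.91, 9.98, 9.67 and 9.97 on the day 14.5 arrays and 12.44, 12.56, 12.48 and 12.47 in liver, 6.09-fold higher. Arg1, arginase, the last step, had 7.93, 7.98, 7.06 and 7.66 and then 11.51, 11.42, 11.32 and 11.10, 12.8-fold higher. Neither gene's groups overlapped, and Cps1 was already well above background before birth. Slc38a3, a glutamine transporter (3.15), the mitochondrial carriers Slc25a15 (1.77) and Slc25a13 (1.47) and Nags, which makes the activator of CPS1 (1.39), rose with them. Amino acid breakdown rose as broadly, with 34 of 37 genes higher, 1 lower and a median of 2.21. After Tdo2 and Tat came Hao1, hydroxyacid oxidase (6.02), and Agxt, alanine-glyoxylate aminotransferase (5.75, 5.64, 5.72 and 5.54, then 11.22, 11.01, 11.23 and 11.14). Oat, ornithine aminotransferase, fell by 0.79 ± 0.19.

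Fatty acid oxidation rose in 31 of 33 genes, with 1 lower and a median of 1.60. Cpt1a, the carnitine palmitoyltransferase that admits fatty acids to mitochondria, had 8.08, 8.31, 7.86 and 7.91 and then 11.48, 11.49, 11.76 and 11.80, 12.1-fold higher, and its regulator Ppara rose 8.11-fold from 8.38 ± 0.14 to 11.40 ± 0.14. Peroxisomal Acaa1b (3.36) and the omega-hydroxylases Cyp4a14 and Cyp4a10 (5.18) led the list, and the cytosolic thioesterase Acot1 fell by 2.00. In the short ketone body list the sides of the pathway separated. The producing enzymes Acat1 and Bdh1 rose by 1.67 and 1.56. Oxct1, the transferase that lets tissues other than adult liver burn ketones, fell by 1.43 ± 0.18, and Slc16a6, a ketone body exporter of hepatocytes, fell by 2.55 ± 0.22. Slc16a1, the monocarboxylate transporter, fell by 0.36, a size near the scaling shifts above.

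Lipid synthesis was mixed. Of 23 fatty acid synthesis genes 10 rose and 6 fell (15 and 3 with housekeeping centring). Over all genes 20.5% rose and 24.6% fell, so the count of falls does not set this list apart. The polyunsaturated elongases Elovl5 and Elovl2 rose by 2.09 and 1.90, and the carbohydrate-response factor Mlxipl by 1.77. Among those that fell, Scd1, the stearoyl-CoA desaturase, had 9.47, 9.75, 10.17 and 10.39 and then 7.08, 7.63, 7.48 and 7.09, and Elovl6, the elongase from palmitate to stearate, went from 9.90 ± 0.16 to 7.39 ± 0.29. These are 6.18-fold and 5.68-fold lower with no overlap. Of 19 cholesterol synthesis genes 11 fell, 2 rose and the median was -0.57 (7 lower and 4 higher with housekeeping centring, 5 and 2 with intron centring). Lss, lanosterol synthase, fell by 1.86 ± 0.12 (adjusted p = 1.04e-06), Mvd by 1.34, Sqle by 1.15 and Fdps by 1.00, while Sc5d near the end of the pathway rose by 0.98. Liver replicate 2 was the highest liver array on 13 of these 19 genes, against 4133 of all 19505 (21.2%).

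Bile acid genes rose in 29 of 30 cases, by a median of 3.05. Cyp7a1, the rate-limiting enzyme of bile acid synthesis, had 6.55, 6.67, 5.74 and 6.27 and then 10.58, 10.17, 10.50 and 10.27, 16.8-fold higher, with 3 of 4 day 14.5 arrays just above background. The uptake carrier Slco1b2 (6.15, at least 46.9-fold), the sterol exporter Abcg5 (6.17, at least 31.5-fold) and the bile acid receptor Nr1h4 (3.11) rose with it. Of 17 organic ion transporters 13 rose and 1 fell, with a median of 2.40. Slc22a30 had 2.72, 2.65, 2.76 and 2.42 and then 9.33, 9.01, 8.61 and 8.31, and Slco1a4 rose by 6.05 and Slc22a7 by 5.28. On Slc22a7 and Slc22a30 liver replicate 1 was the highest and replicate 4 the lowest, over a range of about 1 unit. Abcg2, a porphyrin and drug exporter that red cell precursors also carry, was the one that fell, by 1.21 ± 0.11.

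The cytochrome P450 enzymes of families 1 to 4, which oxidise drugs, steroids and fatty acids, mostly rose. Of 36 genes 33 rose and 1 fell, with a median of 3.90, and 9 lay above background on all day 14.5 arrays against 31 on all liver arrays. With 22 genes at their lower bound and 4 that have none left out, the median was 3.18, and for bile acid genes, 11 at their bound, 2.98. Their mean per array was 5.12 to 5.38 before birth and 9.40 to 9.55 in liver. Cyp3a11, a main drug-oxidising P450 of mouse liver, was detected in both groups, with 8.30, 7.73, 7.67 and 7.33 and then 12.76, 12.79, 12.85 and 12.67, 32.2-fold higher. Cyp2d22 rose 4.98-fold. Cyp4a12a, a fatty acid hydroxylase of adult male liver, was the exception and is named because it was the sole fall. It had 7.10, 7.10, 6.44 and 5.96 on the day 14.5 arrays and 4.26, 4.43, 4.38 and 4.45 in liver. Day 14.5 replicate 4 and every liver array lay below background, and no gene of this list was called lower in the SL line. P450 genes lie in clusters of near-identical copies, so probes of 1 copy can read another. Of 31 conjugation genes 23 rose and none fell, by a median of 1.64, led by the glucuronosyltransferases Ugt2b1 (5.65) and Ugt2a3 (5.36) and the glycine acyltransferase Glyat (5.47). Of 41 genes of ascorbate, purine, peroxisomal and ester metabolism 36 rose and 1 fell (median 2.90), among them Inmt, a methyltransferase (6.57), and the carboxylesterase Ces3a (6.95). Genes that males or adults express, such as major urinary proteins, were mostly low: of 15 adult-type genes 9 rose and 1 fell, with a median of 0.59, but 9 lay below background in both groups.

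**Figure D3:**
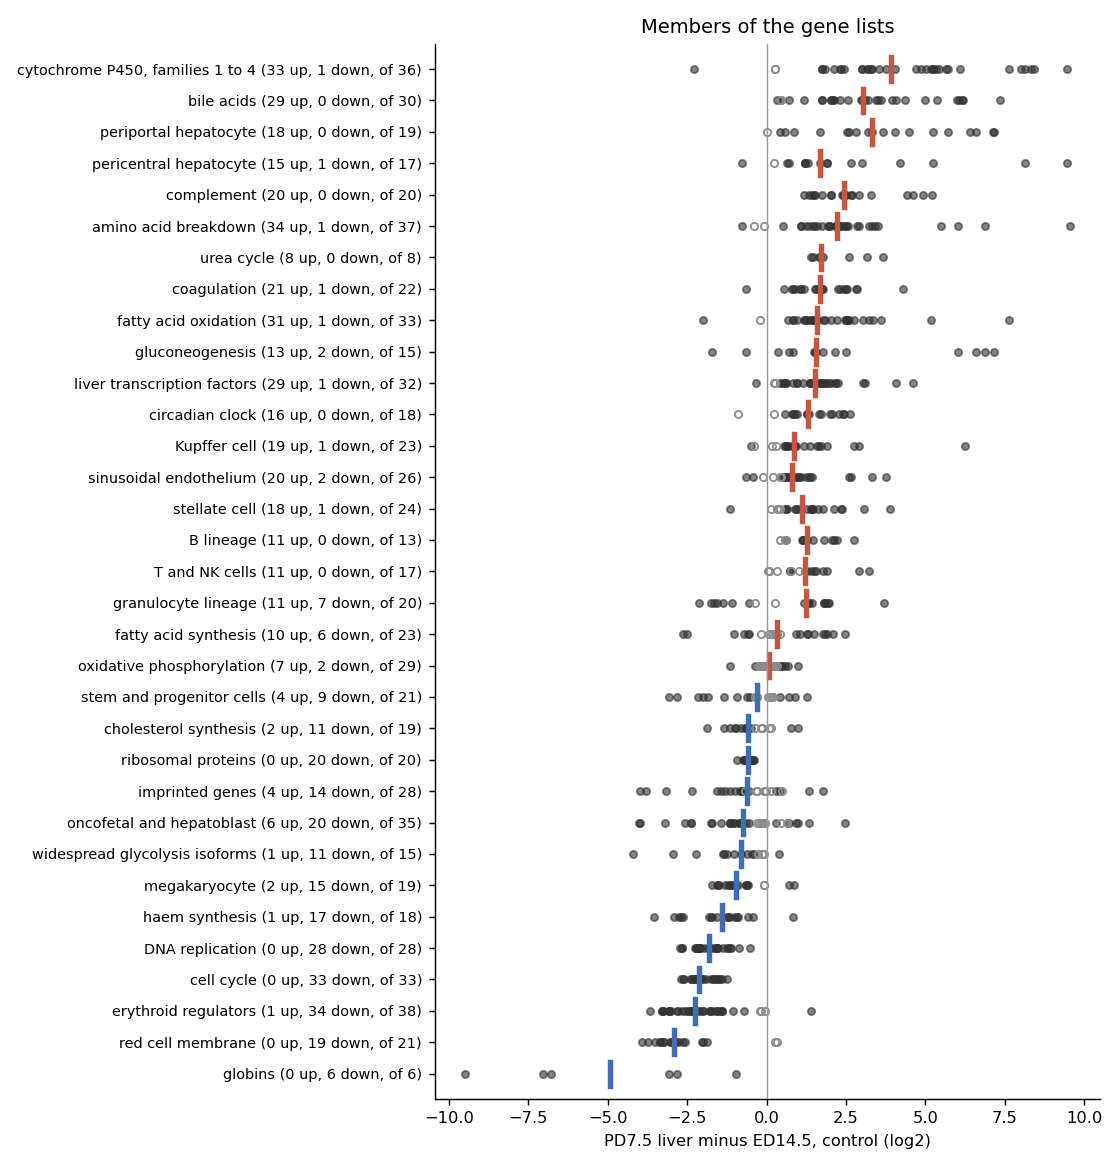
Difference in log2 intensity (liver minus day 14.5) of each measured member of the gene lists, 1 point per gene, open where the gene was not called, and a bar at the list median. The P450 list has a median of 3.90 and bile acid genes 3.05, and the cell cycle, red cell membrane and globin lists have medians of -2.14, -2.91 and -4.93.

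Many plasma protein genes were bright before birth and still rose. Of 23 albumin and transport genes 21 rose and 1 fell, with a median of 1.00. Alb itself rose by only 0.28 ± 0.10 (adjusted p = 0.0375) and Afp did not pass the test (-0.14 ± 0.10, adjusted p = 0.301), both close to the top of the array scale, where 7 genes had both means above 13. Ttr, which carries thyroid hormone and retinol-binding protein, rose by 0.97. By contrast Hp, the haemoglobin-binding haptoglobin, had 7.72, 7.81, 7.64 and 7.96 and then 13.38, 13.32, 13.48 and 13.35, 48.6-fold higher. Hrg, histidine-rich glycoprotein, and Cp, the copper oxidase ceruloplasmin, rose 89.2-fold and 23.6-fold, with Hrg above background on 2 of 4 day 14.5 arrays. Serpina6, the glucocorticoid carrier, fell from 12.52 ± 0.12 to 10.97 ± 0.29. All 16 apolipoprotein and lipoprotein assembly genes rose (median 1.53). Apoa4 and Apoa5, which act on triglyceride-rich particles, rose from below background, at least 11-fold and 11.3-fold, and Apoc3 rose by 4.42. Apoa1 and Apoa2 of high-density lipoprotein, bright before birth, rose by 0.93 and 0.67.

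Complement rose in 20 of 20 genes, by a median of 2.44, and the coagulation list in 21 of 22, by 1.68. Mbl2, mannose-binding lectin, which starts the lectin pathway, had 6.40, 6.74, 6.54 and 6.18 and then 11.72, 11.73, 11.75 and 11.50, 37.1-fold higher, with 3 of 4 day 14.5 arrays above background. C4b of the classical pathway had 6.66, 6.80, 6.68 and 6.60 and then 11.49, 11.56, 11.65 and 11.70, and C4bp, its inhibitor, rose by 4.61. F9, coagulation factor IX, had 5.45, 5.82, 5.79 and 5.77 on the day 14.5 arrays, all below background, and 10.32, 10.07, 9.73 and 9.83 in liver, at least 14.5-fold higher. F7 and F13b rose by 2.85 and 2.54. The one that fell was Vwf, von Willebrand factor, which endothelium and megakaryocytes make rather than hepatocytes (-0.64 ± 0.19, overlapping arrays).

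The promoters of such genes are a textbook place for the hepatocyte factors HNF1 and HNF4. RefSeq promoters (GRCm38.p6, 250 bases before to 50 after the start) were at hand for 15691 genes, 19143 promoters in all, and were searched on both strands. The HNF1 letters GTTAAT, any base and then ATT were in 1.51% of promoters of genes called higher by at least 1 (31 of 2048), 0.196% of those called lower (4 of 2036) and 0.355% of all. For the HNF4 letters CAAAGTCCA the shares were 1.42%, 0.393% and 0.512%. In the lists, 2 of 15 complement promoters (13.3%) and 3 of 21 plasma protein promoters (14.3%) held the HNF1 letters, and 5 of 34 P450 promoters (14.7%) the HNF4 letters. Other pairs had few or none: the HNF1 letters were in 1 of 18 coagulation, 0 of 34 P450 and 0 of 25 bile acid promoters, and the HNF4 letters in 2 of the 25 bile acid promoters and in 0 of the complement, plasma protein and coagulation promoters. No searched motif contains another. These matches are letters in a window and not measured binding. Shown 5′ to 3′ on the strand of the gene, with the HNF1 match in capitals for C4bp (chr1:130661619-130661818, minus strand) and F13b (chr1:139501507-139501706, plus strand) and the HNF4 match in capitals for Cyp3a11 (chr5:145879855-145880054, minus strand), are the windows of 3 genes described above:
C4bp: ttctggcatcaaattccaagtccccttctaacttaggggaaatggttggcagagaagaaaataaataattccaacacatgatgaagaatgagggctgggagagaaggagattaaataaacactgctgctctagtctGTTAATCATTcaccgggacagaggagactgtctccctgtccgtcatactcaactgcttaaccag
F13b: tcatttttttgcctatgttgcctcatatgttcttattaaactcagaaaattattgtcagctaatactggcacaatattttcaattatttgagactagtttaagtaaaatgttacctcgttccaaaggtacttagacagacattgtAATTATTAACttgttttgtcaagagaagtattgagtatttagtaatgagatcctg
Cyp3a11: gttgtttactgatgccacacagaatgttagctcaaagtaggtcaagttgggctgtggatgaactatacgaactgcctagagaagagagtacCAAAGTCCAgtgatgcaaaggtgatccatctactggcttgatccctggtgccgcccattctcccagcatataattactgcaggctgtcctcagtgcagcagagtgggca

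The factors themselves moved less than many of the genes above. Of 32 liver transcription factors and nuclear receptors 29 rose and 1 fell, by a median of 1.53. Hnf4a, the hepatocyte nuclear receptor, had 10.31, 10.23, 10.16 and 10.29 and then 11.09, 11.15, 11.31 and 11.25, 1.94-fold higher, and Cebpa had 8.34, 8.57, 8.46 and 8.66 and then 10.32, 10.04, 10.38 and 10.19, 3.3-fold higher. Neither gene's groups overlapped. Onecut1 rose by 1.61. The receptors that sense drugs and oestrogen, Nr1i3 (4.62, at least 11.3-fold) and Esr1 (4.07, at least 6.5-fold), went from below background on every day 14.5 array to above it on every liver array. Gata6, an early endoderm factor, fell by 0.34, a size near the scaling shifts above.

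Growth factor genes moved in both directions. Igf1, the growth hormone-dependent growth factor, had 9.95, 9.99, 9.86 and 9.40 and then 12.77, 12.95, 13.17 and 13.09, 9.14-fold higher. Igf2, its imprinted fetal counterpart, was at the top of the scale in both groups, where changes may not be resolved: it had 13.58, 13.54, 13.54 and 13.46 and then 13.68, 13.85, 13.94 and 13.80, a rise of 0.29 ± 0.10 (adjusted p = 0.0484) that was -0.02 after quantile normalization. The carriers rose, Igfbp2 by 6.28 and Igfals, the acid-labile subunit of the circulating complex, by 4.06, while the receptors Igf1r and Igf2r fell by 0.87 and 1.14. Egfr rose from below background, at least 5.86-fold. Over this list of hormones and receptors 23 of 27 rose and 2 fell (median 2.20), and liver replicate 4 was the highest liver array on 18 of the 27, against 5108 of all 19505 genes.

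Genes that mark zones of the adult lobule rose on both sides. Of 17 pericentral genes 15 rose and 1 fell (median 1.68), and of 19 periportal genes 18 rose and none fell (median 3.33). Besides Cyp2e1 and Cyp1a2, the pericentral list included Cldn2, a tight junction protein, which had 4.33, 4.63, 4.43 and 4.13 and then 8.56, 8.04, 9.02 and 8.70, and the periportal list Hsd17b6, a steroid epimerase, at least 9.41-fold higher. Of 18 clock genes 16 rose and none fell, by a median of 1.30. The clock output factors Dbp and Nfil3 rose by 2.27 and 2.40, and the receptors Nr1d2 and Rora by 2.45 and 2.62. The labels give no collection time, so time of day cannot be told apart from age.

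Oncofetal genes did not behave as one. Of 35 members 20 fell and 6 rose, with a median of -0.75. Lin28b, which blocks let-7 maturation in fetal progenitors, had 8.34, 8.49, 8.53 and 8.56 and then 4.64, 4.95, 4.25 and 4.01, at least 5.97-fold lower. Dlk1, the imprinted surface protein of hepatoblasts, fell from 11.94 ± 0.03 to 7.96 ± 0.77, 15.7-fold lower. Its day 14.5 values lay between 11.91 and 11.98, whereas the liver values spread from 7.11 on replicate 1 to 8.97 on replicate 4. Tspan8 and Bex1 fell by 3.19 and 2.58. Igf2bp3, an RNA-binding protein of fetal tissues, had 10.01, 10.04, 10.05 and 9.82 and then 9.94, 9.90, 9.86 and 9.94 and did not pass the test (adjusted p = 0.624). Of 28 imprinted genes 14 fell and 4 rose (median -0.61), beside 3615 and 2357 of the 8851 genes above background on all 8 arrays. Phlda2 fell by 3.80, Peg10 by 3.15 and Asb4 by 2.35, while Dcn and the amino acid transporter Slc38a4 rose by 1.78 and 1.32.

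Genes of proliferation fell throughout. All 33 cell cycle genes were lower in liver, by a median of -2.14, and all 28 DNA replication genes, by -1.81. The cell cycle mean was 10.53 to 10.55 on the day 14.5 arrays and 8.24 to 8.97 on the liver arrays. Mki67, the proliferation antigen, had 13.01, 12.92, 13.03 and 12.97 and then 11.26, 11.83, 11.18 and 11.34, 2.99-fold lower (adjusted p = 1.53e-05). Mybl2, a transcription factor of the dividing cell, had 10.61, 10.71, 10.54 and 10.53 and then 7.89, 8.18, 7.68 and 7.88, 6.45-fold lower. Plk1 and Bub1 of mitosis fell by 2.60 and 2.63, and Cdc6 and Orc1, which license replication origins, by 2.68 and 2.74. Mcm5 of the replicative helicase had 11.22, 11.38, 11.43 and 11.46 and then 8.85, 9.60, 9.34 and 9.05, Mcm6 fell by 0.88, and Tk1 by 0.51. Top2a, the topoisomerase of dividing cells, stayed above background on every liver array, with 9.23, 9.87, 9.01 and 9.12 against 10.73, 10.67, 10.68 and 10.78. Liver replicate 2 was the highest liver array for 32 of the 33 cell cycle genes and 24 of the 28 replication genes. Without it the medians were -2.29 and -1.95, and every member stayed lower.

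Genes with a role in growth arrest did not rise as a group. Of 20 members 12 fell and 4 rose (median -0.93). Btg1 and Trp53inp1, both antiproliferative, rose by 1.67 and 1.80, whereas the retinoblastoma gene Rb1, the stress gene Gadd45a and the factor Foxo3 fell by 2.03, 1.89 and 2.32. Of 21 fetal RNA-binding and chromatin genes 16 fell and 2 rose, Hmgb2 of chromatin by -1.52.

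Promoters of dividing-cell genes carry known signatures, the cell cycle homology region and CCAAT boxes in mitotic genes and E2F sites in replication genes. The homology region letters TTTGAA were in 20 of 28 cell cycle promoters (71.4%) against 15.3% of all promoters, and CCAAT in 71.4% against 37.9%. TTTGAA was also in 33.3% of complement and 32.4% of P450 promoters, but in 5.41% of amino acid breakdown and 8.0% of bile acid promoters, all lists that rose. It was in 10.3% of replication promoters. Of promoters of genes called lower by at least 1 it was in 16.1%, against 14.3% of those called higher. CCAAT was also in 65.5% of replication promoters and in 61.9% of plasma protein promoters, a list that rose. The E2F letters TTTCCCGC or TTTGGCGC were in 7 of 29 replication promoters (24.1%), in 2.13% of all and in 0 of the 28 cell cycle promoters. Parts of 4 promoters are shown with every such match in capitals: Mki67 (chr7:135716380-135716579, minus strand) and Top2a (chr11:99024190-99024389, minus strand) with TTTGAA and CCAAT, and Mcm6 (chr1:128359706-128359905, minus strand) and Cdc6 (chr11:98907951-98908150, plus strand) with E2F letters and CCAAT where present. A match on the other strand reads as the reverse complement, for example ATTGG for CCAAT.
Mki67: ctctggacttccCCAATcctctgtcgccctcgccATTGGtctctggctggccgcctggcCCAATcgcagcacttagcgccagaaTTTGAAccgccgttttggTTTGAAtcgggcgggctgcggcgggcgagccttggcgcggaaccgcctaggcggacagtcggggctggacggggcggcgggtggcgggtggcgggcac
Top2a: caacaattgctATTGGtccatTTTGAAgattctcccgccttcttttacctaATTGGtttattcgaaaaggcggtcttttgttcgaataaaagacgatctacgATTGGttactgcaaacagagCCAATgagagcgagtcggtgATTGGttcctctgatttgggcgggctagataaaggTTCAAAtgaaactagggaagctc
Mcm6: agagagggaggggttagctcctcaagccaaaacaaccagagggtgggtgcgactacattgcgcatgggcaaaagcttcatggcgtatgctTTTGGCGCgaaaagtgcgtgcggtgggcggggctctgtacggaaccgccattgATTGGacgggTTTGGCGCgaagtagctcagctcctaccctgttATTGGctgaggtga
Cdc6: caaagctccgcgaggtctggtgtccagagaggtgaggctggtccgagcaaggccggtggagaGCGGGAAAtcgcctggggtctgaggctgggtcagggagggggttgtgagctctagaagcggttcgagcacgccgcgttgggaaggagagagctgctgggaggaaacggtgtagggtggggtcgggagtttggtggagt

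All 6 measured globin genes fell (median -4.93), 1 of them below background in both groups. Hbq1b, a theta-type chain, fell by 3.06, and the adult alpha and beta globins were not analysed here. Of 18 haem synthesis genes 17 fell and 1 rose, by a median of -1.40. Alas2, the erythroid aminolevulinate synthase, had 12.17, 12.10, 12.12 and 11.96 and then 9.97, 10.67, 10.28 and 10.16, 3.51-fold lower, and the one that rose was its counterpart in other tissues, Alas1, with 9.08, 9.01, 8.99 and 8.98 and then 9.56, 9.72, 10.13 and 9.99. The erythroid iron importer Slc25a37 of mitochondria fell by 2.75, its partner Abcb10 by 2.70, Tspo2 by 3.53 and Uros, uroporphyrinogen synthase, by 2.90.

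Of 21 red cell membrane and skeleton genes 19 fell and none rose, by a median of -2.91. Icam4, the adhesion molecule that ties erythroblasts to macrophages, had 9.02, 9.20, 9.42 and 9.34 and then 5.43, 6.17, 4.79 and 4.86, with replicate 2 the only liver array above background. Kel, a blood group peptidase, had 10.73, 10.29, 10.24 and 10.07 and then 6.49, 7.19, 6.35 and 6.40, 13.2-fold lower. Slc4a1, the band 3 anion exchanger, was still bright in liver, with 10.77, 11.40, 10.87 and 11.01 against 12.92, 12.85, 12.85 and 12.89. Cldn13 and Ermap fell by 3.51 and 3.36.

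Of 38 erythroid regulators 34 fell and 1 rose, by a median of -2.24. Gata1, the master factor of red cell and platelet precursors, had 11.01, 11.20, 11.03 and 11.08 and then 7.96, 8.05, 8.20 and 7.80, 8.44-fold lower (adjusted p = 5.89e-08). Klf1, which activates adult globin and membrane genes, had 11.06, 11.15, 11.02 and 10.90 and then 7.83, 8.46, 7.60 and 8.02, and Epor, the erythropoietin receptor, fell from 10.07 ± 0.10 to 6.81 ± 0.20. They were 8.31-fold and 9.57-fold lower, again without overlap. Tal1, Gfi1b and Nfe2 fell by 3.08, 3.27 and 3.30, and Bcl11a, the repressor of embryonic globin genes, fell by 3.66. The one that rose was Tfr2, a transferrin receptor that hepatocytes share with erythroid cells, by 1.41.

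The 4 liver arrays differed in this respect. Replicate 2 was the highest of them for 19 of 21 membrane genes, 32 of 38 regulators and 9 of 18 haem genes, against 21.2% of all genes. Cldn13 had 6.62, 8.38, 6.10 and 6.73 on the liver arrays, and Gfi1b 7.57, 8.62, 7.97 and 7.88. The membrane list mean was 8.99 on replicate 2 and 7.98 to 8.30 on the others, and 10.91 to 11.03 on the day 14.5 arrays. Without replicate 2 the medians were -3.17 for membrane genes and -2.40 for regulators. Replicate 2 was also the one highest in the cell cycle genes, and was the highest on 0 of 32 liver transcription factors, 0 of 27 collagen and matrix genes and 1 of 31 conjugation genes. Without it 7 of the 219 genes named here lost their call and none changed sign.

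**Figure D4:**
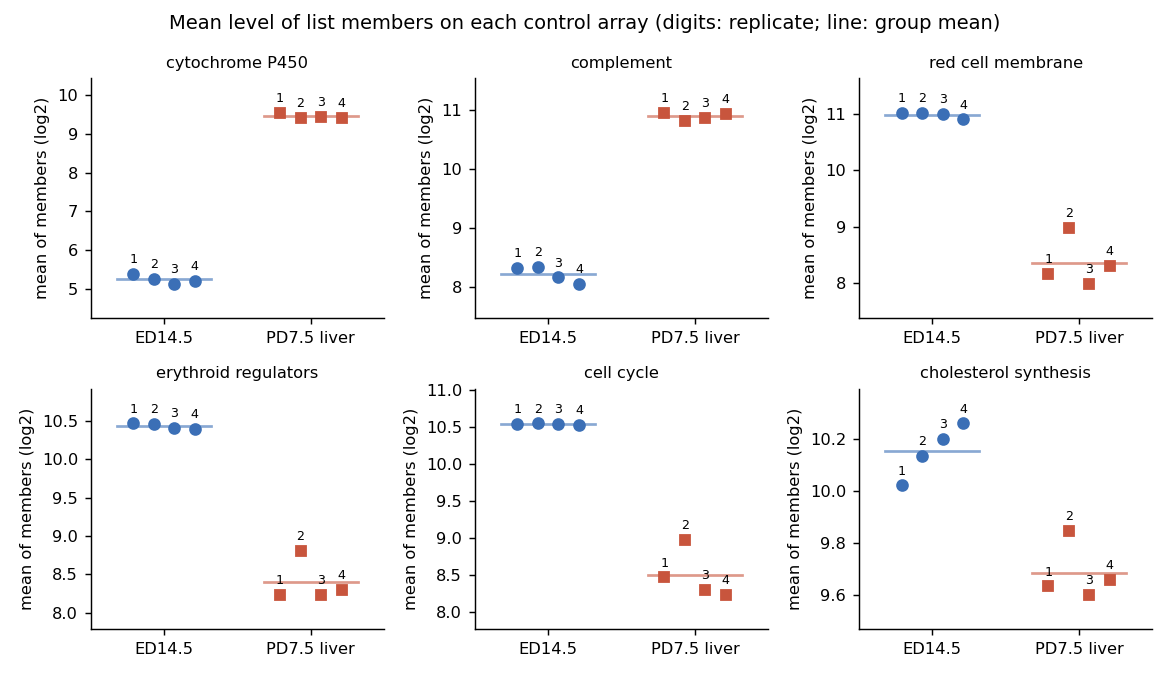
Mean log2 intensity of the members of 6 gene lists on each of the 8 arrays, with digits for the replicate and a line at the group mean. The groups do not overlap in any of the 6, and liver replicate 2 stands above the other liver arrays in the cell cycle (8.97 against at most 8.47) and red cell membrane lists (8.99 against at most 8.30).

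The letters AGATAA are a form of the site that GATA factors bind, and other forms were not searched. They were in 4 of 13 membrane gene promoters (30.8%) and 8 of 48 regulator promoters (16.7%), against 9.56% of all. AGATAA was in 2 of 19 haem synthesis promoters (10.5%), and in 6 of 34 P450 promoters (17.6%) and 4 of 25 bile acid promoters, lists that rose. It was in 9.33% of promoters of genes called lower by at least 1 against 9.13% of those called higher. The KLF1 letters CCACACCC were in 1 of 13 membrane, 2 of 48 regulator, 0 of 19 haem synthesis and 0 of 5 globin promoters, against 3.72% of all. The windows of Icam4 (chr9:21029282-21029431, plus strand), Kel (chr6:41704326-41704475, minus strand) and Epor (chr9:21963577-21963776, minus strand) are shown with the AGATAA match in capitals, reading TTATCT where it lies on the other strand. Other forms of the site are not marked.
Icam4: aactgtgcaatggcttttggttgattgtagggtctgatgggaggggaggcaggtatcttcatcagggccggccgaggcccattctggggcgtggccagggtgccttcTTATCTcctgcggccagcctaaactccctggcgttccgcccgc
Kel: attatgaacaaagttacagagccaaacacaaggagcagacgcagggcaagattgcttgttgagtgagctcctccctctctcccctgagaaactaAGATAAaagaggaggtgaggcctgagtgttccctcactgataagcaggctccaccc
Epor: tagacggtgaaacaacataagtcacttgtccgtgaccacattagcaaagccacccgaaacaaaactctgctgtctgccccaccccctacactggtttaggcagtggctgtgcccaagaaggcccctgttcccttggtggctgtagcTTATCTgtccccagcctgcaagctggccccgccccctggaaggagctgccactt

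Iron genes moved both ways. Of 22 members 14 rose and 5 fell. Hamp, the hormone hepcidin that blocks iron export, rose from below background on every day 14.5 array to 6.43, 7.04, 6.72 and 7.85, highest on replicate 4 (1.48 ± 0.27). Its upstream partner Hjv rose by 2.84. Of the 5 that fell, the iron importer Slc11a2 had the largest difference (-1.56). Tfrc, the transferrin receptor, fell from 11.79 ± 0.14 to 10.35 ± 0.36, and Steap3 and Ncoa4 fell by 1.29 and 1.44. Fth1, ferritin heavy chain, fell by 0.28 and was 0.03 with housekeeping centring.

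Other blood lineages moved less and in different directions. Of 19 megakaryocyte and platelet genes 15 fell and 2 rose (median -0.95), with Mmrn1 at -1.72 and the platelet chemokine Pf4 at -1.07. Of 21 stem and progenitor genes 9 fell and 4 rose. Of the 8851 genes above background on all 8 arrays 3615 fell and 2357 rose, so those counts do not set the list apart. Kit and Myb, which progenitors and erythroid cells share, fell by 2.01 and 2.16 and Gata2 by 1.35. Cd34 fell by 0.51 with overlapping arrays, and Hlf and Erg, which hepatocytes and endothelium respectively also express, rose by 1.27 and 0.91. The list median of -0.31 was 0.00 with housekeeping centring. Liver replicate 2 was again the highest on 12 of 19 and 12 of 21 of these genes.

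Granulocyte genes moved both ways. Of 20 members 11 rose and 7 fell. Among those that fell were 3 azurophil granule genes, which promyelocytes make: Mpo, myeloperoxidase, had 11.08, 11.08, 10.52 and 11.08 and then 8.50, 9.75, 8.65 and 8.35, and Ctsg and Prtn3 fell by 1.74 and 1.55. Among those that rose were genes of later granules and mature neutrophils: Ngp had 8.81, 8.61, 9.01 and 9.18 and then 10.90, 11.17, 10.87 and 10.49, Ltf, lactoferrin, rose by 1.84 and S100a8 by 1.31. Chil3 rose from below background, at least 2.53-fold. Within each of these genes the groups did not overlap. Early and late granule genes were not separate lists. Liver replicate 2 was the highest liver array on 10 of the 20. Of 13 mast cell, basophil and eosinophil genes 4 fell and 1 rose (median -0.34, and 0.024 in the SL line), while over all genes 24.6% fell and 20.5% rose. Cpa3, a mast cell protease, fell by 2.43, to below background.

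Lymphoid genes were mostly near or below background. Of 13 B lineage genes 11 were called higher (10 without liver replicate 2), with 4 below background in both groups. Of 17 T and NK genes 11 were called higher, with 10 below background in both. Only 4 of the 13 and 5 of the 17 lay above background on all liver arrays. The medians were 1.27 and 1.22. With genes at their lower bound, and 7 and 12 that have none left out, they were 0.58 and 0.40. Replicate 2 was the highest liver array on 9 of the 13 B lineage genes, whose mean was 6.25 on it and 5.62 to 5.79 on the others. Cd79a, a chain of the B cell receptor, had 5.08, 5.02, 4.35 and 4.09 and then 6.98, 7.63, 7.72 and 7.20, at least 2.38-fold higher, and the B lineage factors Pax5 and Ebf1 rose by 2.12 and 1.81. Gzma, a granule protease of NK and T cells, had 8.65, 6.66, 6.60 and 6.49 in liver, with replicate 1 about 2 units above the others, and was below background on every day 14.5 array. Of 26 interferon and MHC genes 20 rose and 1 fell (median 1.66), with the class I gene H2-D1 at 3.22 and the immunoproteasome subunit Psmb8 at 2.51, while Ifit2 fell by 1.15. With 9 of the 26 at their lower bound and 3 that have none left out, the median was 0.97. In the SL line 15 were called higher and 3 lower, with a median of 0.96.

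Most markers of the resident cells of the liver were higher. Of 23 Kupffer cell and macrophage genes 19 rose and 1 fell (median 0.88). Vsig4, the complement receptor of Kupffer cells, had 4.02, 3.88, 4.66 and 3.55 and then 10.22, 10.21, 10.47 and 10.12, at least 17.4-fold higher. Clec4f, a lectin of Kupffer cells, had 6.51, 7.48, 6.96 and 7.04 and then 9.96, 9.67, 9.63 and 9.71, 6.69-fold higher and already above background before birth. Spic, a factor of iron-recycling macrophages, fell by 0.50 with overlapping arrays. Of 13 genes of the fetal erythroblast island, a list that includes Klf1 and Icam4, 5 rose and 5 fell.

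Of 26 sinusoidal endothelium genes 20 rose and 2 fell (median 0.79). The scavenger lectin Clec4g had 6.13, 6.33, 6.24 and 6.36 and then 9.96, 9.78, 10.22 and 10.18, and Fcgr2b, which clears immune complexes, rose by 3.32. Stab2, a hyaluronan scavenger, rose by 0.92, and Lyve1 fell by 0.42. Of 24 stellate and mesenchymal genes 18 rose and 1 fell (median 1.13): Lrat, which stores retinol in stellate cells, had 5.95, 6.79, 7.37 and 7.03 and then 8.88, 9.11, 9.13 and 9.52, Vipr1 rose by 3.87 and Hgf by 2.33, and Ptn fell by 1.15. Collagen and matrix genes rose in 23 of 27 cases (median 1.17), led by Eln, elastin (2.86), while Fbln1 fell by 1.42. Liver replicate 4 was the highest liver array on 15 of the 26 endothelial, 13 of the 24 stellate and 14 of the 27 matrix genes, with replicate 3 the highest on the other 13. Of 13 cholangiocyte genes 7 were called higher and 1 lower, but 6 lay below background in both groups. Only 4 of the 13 lay above background on all liver arrays. Sox9, a factor of bile duct cells and cartilage, rose by 1.73.

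Ribosomal protein genes all fell, but by little. The 20 members had a median of -0.58, and their mean was 11.86 to 12.03 on the day 14.5 arrays against 11.32 to 11.45 in liver. Rplp0, an acidic stalk protein, had 11.93, 12.07, 12.02 and 12.20 and then 11.25, 11.11, 11.13 and 11.06. With housekeeping centring 10 of the 20 were still lower and with intron centring 1, with medians of -0.28 and -0.33. Of 29 oxidative phosphorylation genes 7 rose and 2 fell, with a median of 0.07 (17 and 1 with housekeeping centring). Over all genes 20.5% rose and 24.6% fell, so the count of rises does not set the list apart. Ndufa1 of complex I rose by 0.98.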

How the data were processed

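Total RNA extracted with Trizol from snap-frozen samples was labelled as biotinylated cRNA and hybridised to arrays, per the labels' protocols. The authors deposited log2 intensities for 29129 probe sets on 24 arrays, and the submitters' processing notes name RMA and oligo, with versions not given in the sources used here. No scanner files were used, so background correction and normalization are the authors', and large differences of dim genes may be compressed by them. Probe sets were named through the platform annotation and matched to RefSeq symbols by gene ID. Of all features 6923 were controls, 19572 named 1 gene and 2634 named none, and the brightest probe set was kept for each of the 55 genes that had several.

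Each difference was fitted with limma 3.58.1 (lmFit and eBayes) in R 4.3.3, with the data.table package (version 1.17.8), on the 8 control arrays, without a covariate. The SL arrays were fitted alone, and the difference between lines as an interaction over 16 arrays. The fit was tested on simulated data. The number of arrays limits the precision, and the median SE was 0.165. The labels do not say whether replicate numbers pair samples across groups, and no pairing was used. Same-numbered arrays deviated from their group means with correlations of -0.06 to 0.01, which do not settle it.

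The members and the gene lists were chosen with earlier results of these data known. Genes were named by rule: the 12 largest differences per direction with no overlap and the brighter group above background on all 4 arrays, up to 4 called members of a list per direction, up to 2 members with small differences, and a fixed set of anchor genes. Not every gene the rule takes is printed. Lists are described by counts and medians, with no set test. Several lists share genes. Some list members were not analysed here, and near-identical paralogues (P450, Ugt2b, globin and major urinary protein genes) are uncertain. Promoter sequences are RefSeq's for build GRCm38.p6.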

Additional observations from a re-analysis of the deposited data

Results flagged for a closer look

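In each group of 4 arrays the 219 genes named above were searched for an array that stands apart, by Dixon's 95% critical value for the gap to its nearest neighbour. This gave 23 of 438 groups, and chance gives about 1 in 20. On the liver arrays, replicate 2 stood high for the erythroid genes Abcb10 (9.32, others 8.27 to 8.44) and Kel (7.19, others 6.35 to 6.49) and low for Fbln1 (5.74, others 6.24 to 6.29). Replicate 1 stood high for Gzma (8.65, others 6.49 to 6.66), replicate 3 high for Ptn (6.81, others 5.82 to 5.98) and low for Ttr (13.55, others 13.62 to 13.63), and replicate 4 low for Mbl2 (11.50, others 11.72 to 11.75).

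On the day 14.5 arrays, replicate 1 stood low for Hbb-y (12.07, others 12.76 to 12.84), Phlda2 (8.13, others 8.69 to 8.77), Aldoa (11.12, others 11.36 to 11.41) and, below background, for F9 (5.45) and Prok1 (3.77). Replicate 2 stood high for Padi2 (9.25, others 8.94 to 8.97) and Nr1d2 (6.26, others 5.67 to 5.74) and low for Myb (9.94, others 10.03 to 10.04). Replicate 3 stood low for Mpo (10.52, the other 3 at 11.08), Foxo3 (10.78, others 11.04 to 11.05) and Bcl11a (10.35, others 10.43 to 10.44), and high for Ptn (7.73, others 7.06 to 7.13) and Sox9 (6.79, others 6.14 to 6.23). Replicate 4 stood low for Tspo2 (9.78, others 10.31 to 10.36), Spic (8.13, others 8.55 to 8.61) and Pygl (9.73, others 9.89 to 9.92).

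The age difference of Cirbp differed between the lines by -1.59 (SL minus control), the 1 gene that passed the interaction test.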

How the results depend on the processing

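Leaving out each of the 8 arrays in turn gave 8031 to 8544 called genes, 3647 to 3961 of them higher and 4349 to 4758 lower in liver. With the replicate number as a replicate block, 8338 genes were called, although the labels do not say that the numbers pair samples. Centring on housekeeping genes gave 6878 higher and 3104 lower, centring on intron controls 2331 lower, and limma's treat against a difference of 1 called 2019 genes (1141 higher, 878 lower), fewer because it tests for more than that size. Under treat 52 of the 219 named genes lost their call and kept their sign.

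The difference between lines called 16 genes with an intensity trend and robust prior, and 1 to 2 on leaving out each of the 16 arrays, the 2 being reached without ED14.5 SL replicate 2 or without PD7.5 SL replicate 3. Cirbp was called in every setting tried, with differences of -1.66 to -1.50 on leaving out single arrays.

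Among named genes the sign turned for Igf2 (-0.022 after quantile normalization), Fth1 (0.0278 with housekeeping centring), Afp (0.17 with housekeeping and 0.11 with intron centring) and Igf2bp3 (0.23 and 0.18), and, once the Y-linked score was a covariate, for Eif2s3y (-0.0355) and Kdm5d (-0.0825), 2 of its 3 genes. The causes were not tested. Depth is not defined for arrays, and 7486 genes below background on every array have no measured level.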
